A study of Homo sapiens with 12 samples.

Results

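BCR and ABL1 are the genes joined by the Philadelphia chromosome translocation, and K562, the cell line of this ChIP-seq series, is a human chronic myeloid leukemia line that carries the resulting BCR-ABL1 fusion. Their members here are all listed regions of H2A.Z and of acetylated H2A.Z (H2A.Zac) that overlap the gene body or the 100 kb to each side, 74 regions of 158028 in the 6 deposited lists, with 41 around BCR and 33 around ABL1. K562 cells in which every endogenous copy of EP400 carries a degradation tag were treated with 500 nM dTAGV-1 for 24 h, so that the endogenous protein was lost in all groups, and EP400 was supplied again from the AAVS1 locus, as wild type (WT) or without the SANT and HD domains through which it holds TRRAP (ΔTRRAP). Each line is 1 clone, and each gave 2 biological replicates of input, H2A.Z ChIP and H2A.Zac ChIP, which makes 12 libraries. The replicates of a mark were merged by the authors before the lines were compared, and each listed region has 1 value, the log10 likelihood ratio of the comparison, which is at least 3 where the lines were called different. A region higher in WT is called lost in ΔTRRAP, a region higher in ΔTRRAP is called gained, and the remainder are called unchanged. The lists hold no read counts and no value per replicate, and their depth is not known, so that neither a spread over replicates nor a test between the lines can be given. The ratio is not a fold change, and the peak of a mark can be divided among several neighboring or overlapping regions of different classes.

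H2A.Z is a histone variant that is placed at promoters and enhancers by the EP400-containing TIP60 complex and by the SRCAP complex, and TIP60 also acetylates it, a form found mainly at active regulatory elements. ABL1 is a tyrosine kinase held in check by its own amino-terminal segments, and BCR is a signaling protein with oligomerization, guanine nucleotide exchange and GTPase-activating domains. In the fusion, the BCR promoter and the first part of BCR drive a protein that ends in the kinase and all further domains of ABL1. In K562 the transcript joins exon 14 of BCR to exon 2 of ABL1 (e14a2), and the line is known to carry extra copies of the fusion. The sides were therefore set from the annotation. For BCR, the 100 kb upstream and the gene through exon 14 are on the side that the fusion keeps, intron 14 is the junction interval, and exon 15 onward with the 100 kb downstream is left out. For ABL1, the 100 kb upstream and exon 1b are left out, the interval from exon 1b to exon 2, which includes the other first exon, 1a, is the junction interval, and exon 2 onward with the 100 kb downstream is kept. Where in these intervals the breaks of K562 lie was not determined, and regions of the fused and of the unfused copies fall on the same coordinates and cannot be told apart in the lists. Copy number and inputs were not analysed here. Since the ratio also grows with depth, ratios on the amplified and the other sides are not strictly on the same footing, and the part of copy number in them was not tested.

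The labelled cell type was compared with markers of the line. An H2A.Zac region lay within 1 kb of the canonical transcription start site (TSS) of 9 of 10 erythroid and leukemic genes, among them the globin genes HBG1 and HBG2 and the transferrin receptor gene TFRC, and GATA1 had none at its canonical TSS. Of all protein-coding genes, 64.2% had an H2A.Zac region and 62.4% an H2A.Z region there, and an H2A.Z region was at 4 of the 10 markers. Of the genes of other cell types, CD3E, a T cell gene, had an H2A.Zac region, and ALB, PAX5, MYOD1 and INS had none. The submitters' label calls the cells lymphoblasts, and the B cell gene PAX5 carried no region.

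The sequences at the starts of both genes and at the changed site with the highest ratio in the windows show where the marks lie. All are in hg38 on the plus strand, which is the coding strand of both genes. The promoters of BCR and of ABL1 exon 1a are those of RefSeq (GRCh38.p14), from 250 bases before to 50 after the start, and that of exon 1b was cut from hg38 in the same way. The last sequence is the central 300 bases of the lost H2A.Zac region in the first intron of ABL1. Capitals mark exact matches, on either strand, to the 4 motifs that were searched: the MYC E-box CACGTG, the GATA motif AGATAA, the AP-1 motif TGACTCA and the GC box GGGCGG, which reads CCGCCC on the other strand.
BCR promoter, chr22:23180259-23180558: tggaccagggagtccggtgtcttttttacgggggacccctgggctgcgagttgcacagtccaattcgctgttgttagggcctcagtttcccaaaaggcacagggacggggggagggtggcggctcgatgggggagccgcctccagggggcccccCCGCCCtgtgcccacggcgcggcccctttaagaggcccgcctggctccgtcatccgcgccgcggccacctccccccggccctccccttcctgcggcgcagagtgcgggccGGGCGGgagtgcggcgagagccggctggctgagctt
ABL1 exon 1b promoter, chr9:130712793-130713092: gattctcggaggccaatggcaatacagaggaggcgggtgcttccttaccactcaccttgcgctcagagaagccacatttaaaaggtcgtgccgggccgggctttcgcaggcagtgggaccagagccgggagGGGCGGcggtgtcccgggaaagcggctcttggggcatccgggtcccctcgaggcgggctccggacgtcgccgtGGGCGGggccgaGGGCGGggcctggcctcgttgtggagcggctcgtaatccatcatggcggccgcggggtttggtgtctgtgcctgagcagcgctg
ABL1 exon 1a promoter, chr9:130835004-130835303: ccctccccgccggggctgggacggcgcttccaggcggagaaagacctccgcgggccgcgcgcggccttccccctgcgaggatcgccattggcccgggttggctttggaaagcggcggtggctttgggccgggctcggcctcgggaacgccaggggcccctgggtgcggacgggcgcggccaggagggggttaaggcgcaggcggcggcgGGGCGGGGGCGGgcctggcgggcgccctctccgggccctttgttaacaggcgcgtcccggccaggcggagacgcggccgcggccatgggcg
Lost site in the first intron of ABL1, chr9:130768441-130768740: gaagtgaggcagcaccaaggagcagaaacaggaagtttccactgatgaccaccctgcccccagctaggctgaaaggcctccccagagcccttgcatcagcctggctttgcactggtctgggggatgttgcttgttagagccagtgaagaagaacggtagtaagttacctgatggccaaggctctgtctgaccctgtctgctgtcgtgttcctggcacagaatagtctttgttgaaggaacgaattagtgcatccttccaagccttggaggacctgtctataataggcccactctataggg

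The promoters were rich in G and C, at 71.7% in BCR, 68.0% in ABL1 exon 1b and 78.3% in ABL1 exon 1a, with 27, 29 and 42 CpG dinucleotides. The only motif found in the 3 promoters was the GC box, with 2, 3 and 2 matches, and 45.0% of the 35116 RefSeq promoters of the same length hold it. The lost site in ABL1 was unlike the promoters, with 53.0% G and C, 3 CpG dinucleotides and none of the 4 motifs. The other motifs occur in 7.26% (MYC E-box), 10.3% (GATA) and 4.95% (AP-1) of RefSeq promoters. A match is a run of letters and not a measured binding site.

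Around BCR (ENSG00000186716, chr22:23179704-23318037, plus strand, 138 kb), 15 H2A.Z and 26 H2A.Zac regions were listed. Of the H2A.Zac regions, 15 were changed, 6 lost and 9 gained, a share of 57.7% (Wilson 95% confidence interval, 38.9 to 74.5%), where 52.1% of all 94586 H2A.Zac regions were changed. Of the H2A.Z regions, 6 were changed, 3 in each direction, a share of 40.0% (19.8 to 64.3%), where 34.0% of all 63442 H2A.Z regions were changed. Around ABL1 (ENSG00000097007, chr9:130713043-130887675, plus strand, 175 kb), 13 H2A.Z and 20 H2A.Zac regions were listed. Of the H2A.Zac regions, 6 were lost and 3 gained, 45.0% changed (25.8 to 65.8%), and of the H2A.Z regions 2 were lost and 1 gained, 23.1% changed (8.18 to 50.3%). In both windows the changed share of both marks was therefore within its counting error of the share over all regions. The intervals cover counting error only and treat regions as independent, which neighboring regions are not. The number of regions per 100 kb was also ordinary, with 7.68 H2A.Zac regions around BCR and 5.34 around ABL1 against a median of 5.83 over the windows of 19970 protein-coding genes, and 4.43 and 3.47 H2A.Z regions against 3.85.

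**Figure D1:**
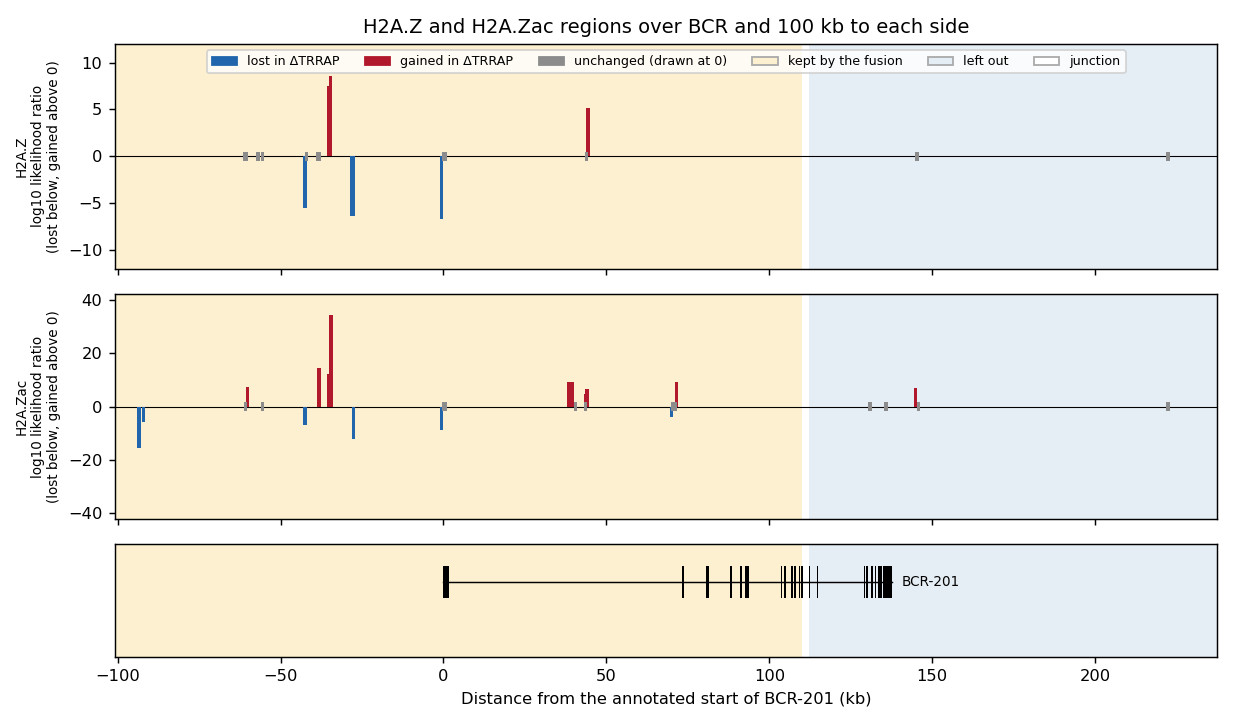
H2A.Z (top) and H2A.Zac (middle) regions around BCR by distance from the annotated start of BCR-201 in kb, with the exons of BCR-201 below. Bars show the deposited log10 likelihood ratio, downward for lost and upward for gained regions, gray marks at 0 are unchanged regions, regions under 1 kb are drawn 1 kb wide, and the narrow unshaded strip is intron 14. The highest bar is the gained H2A.Zac region at the RAB36 start (34.2), and all lost regions lie on the kept side.

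Directions were mixed around BCR. Gained regions made up 9 of the 15 changed H2A.Zac regions (60.0%, 35.7 to 80.2%) and 3 of the 6 changed H2A.Z regions (50%, 18.8 to 81.2%). Over all regions, the gained share of changed regions was 50.4% for H2A.Zac and 41.6% for H2A.Z. For H2A.Z the order against all regions depended on the unit. By base pairs, 26.1% of the changed H2A.Z around BCR was gained (1045 bp gained and 2962 bp lost), where 39.0% of that over all regions was, and with regions of 1 class within 1 kb merged it was 40.0% (2 of 5), where 41.8% of all were. For H2A.Zac the share around BCR was 60.6% by base pairs and 58.3% merged, where 50.6% and 48.9% were gained over all regions. Counted by region, the gained share on chromosome 22 was 48.4% for H2A.Zac and 35.8% for H2A.Z, and in the 5-Mb window of that chromosome that holds BCR, from 20 to 25 Mb, it was 43.0% and 21.6%. Of the 111 H2A.Z regions changed there, 24 were gained, 3 of them around BCR. Around ABL1 the gained share was 33.3% for H2A.Zac (3 of 9, 12.1 to 64.6%) and 33.3% for H2A.Z (1 of 3, 6.15 to 79.2%), while chromosome 9 between 130 and 135 Mb had 50.8% and 35.3%.

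The promoter of the main BCR transcript, BCR-201, was covered by unchanged regions with lost regions on its upstream side. Just upstream of this start, H2A.Zac was lost at chr22:23179388-23180002 (615 bp, ratio 8.85) and H2A.Z at chr22:23179389-23180110 (722 bp, ratio 6.69). The first annotated base of the gene, at 23179704, belongs to another of its 15 transcripts and lies inside both lost regions. The ratios of the lost regions were near the medians of their whole lists, which are 8.27 for lost H2A.Zac and 5.95 for lost H2A.Z regions. From there over the start and into exon 1, H2A.Zac was unchanged at chr22:23180003-23181738 (1736 bp, ratio 0.436) and H2A.Z at chr22:23180111-23181555 (1445 bp, ratio 0.392). The BCR promoter printed above lies whole within both unchanged regions, and the lost regions end before its first base. A pseudogene, BCRP8, is annotated at chr22:23179918-23180172, over the border of the lost and unchanged regions, and other BCR pseudogenes are annotated elsewhere on chromosome 22. How reads were assigned among such copies was not analysed here.

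Of the protein-coding genes that start upstream of BCR, RAB36, which encodes a small GTPase of the Rab family, had the highest ratios. Regions of both marks were gained at its start: H2A.Zac at chr22:23145453-23146088 (636 bp, ratio 34.2) and chr22:23144834-23145177 (344 bp, ratio 12.3), and H2A.Z at chr22:23145437-23145786 (350 bp, ratio 8.61) and chr22:23144772-23145186 (415 bp, ratio 7.49). The first was number 717 of 24844 gained H2A.Zac regions by ratio, within the highest 2.89% of that list, whose 99th percentile is 51.2. All 4 listed regions at this start were gained, and no unchanged region was listed there. Both marks gained at the canonical TSS occurred in 11.0% of all protein-coding genes. At the start of the neighboring gene RSPH14, which encodes a radial spoke protein of cilia, H2A.Zac was gained at chr22:23141546-23142767 (1222 bp, ratio 14.5) over an unchanged H2A.Z region (ratio 0.959). The acetylated form thus differed between the lines at a site where H2A.Z itself was not called different.

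Lost regions alternated with these gained ones along the same flank. Farthest upstream, within the overlapping genes GNAZ and RSPH14, H2A.Zac was lost at chr22:23086296-23087679 (1384 bp, ratio 15.6), the highest ratio of a lost region around BCR, with no H2A.Z region on it. Inside RAB36, downstream of its gained start, H2A.Zac was lost at chr22:23152341-23153367 (1027 bp, ratio 12.3) together with H2A.Z at chr22:23151876-23153306 (1431 bp, ratio 6.42). In RSPH14, H2A.Z was lost at chr22:23137529-23138337 (809 bp, ratio 5.58) on a lost H2A.Zac region (ratio 7.07). RAB36 thus had gained regions at its start and lost regions in its body.

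Within BCR, the changes after the promoter were in intron 1. There, 4 H2A.Zac regions were gained, with ratios from 4.51 to 9.24, 1 was lost (ratio 4.09) and 4 were unchanged, and 1 H2A.Z region was gained at chr22:23224343-23224622 (280 bp, ratio 5.18) on a gained H2A.Zac region (ratio 6.60) and beside an unchanged H2A.Z region (ratio 1.60). The widest changed region of either window was among these, a gained H2A.Zac region of 2187 bp at chr22:23218452-23220638 (ratio 9.24), 37.9 kb downstream of the start and without an H2A.Z region, which is named here after its values were seen. From exon 2 to exon 18 no region of either mark was listed. Unchanged H2A.Zac regions followed in intron 18 (ratio 0.835) and in exon 23, the last (ratio 0.567), neither with an H2A.Z region.

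**Figure D2:**
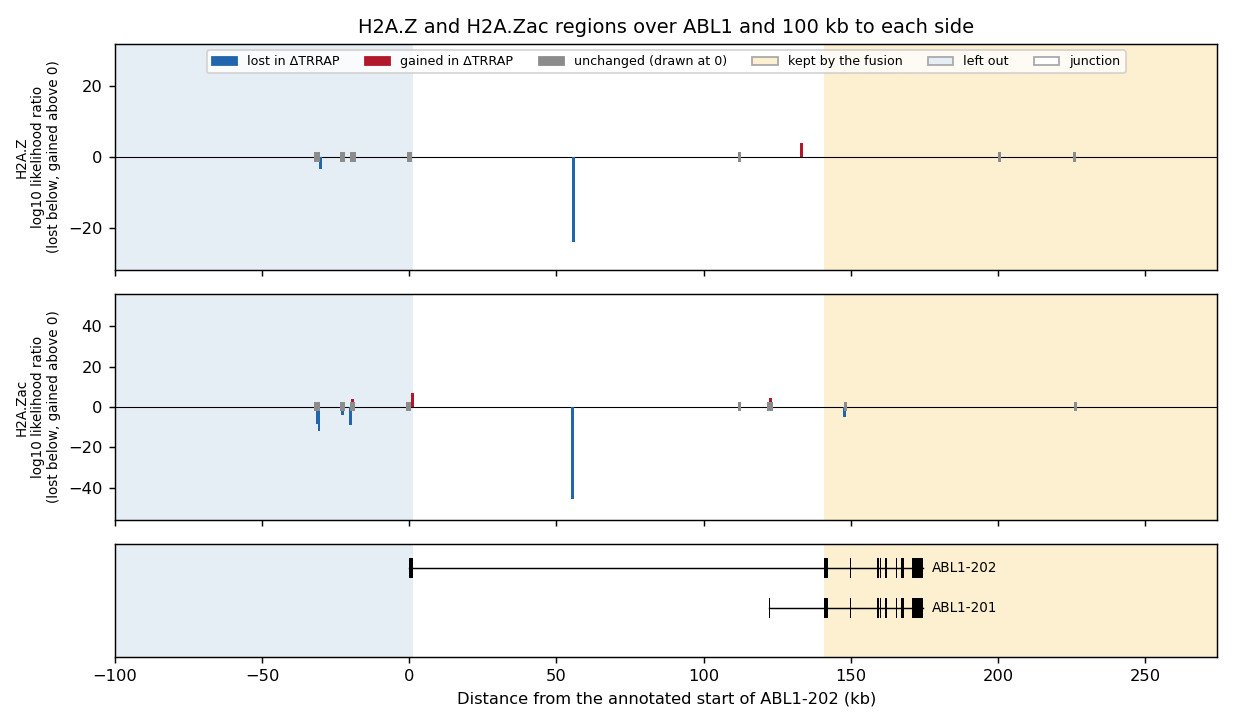
H2A.Z (top) and H2A.Zac (middle) regions around ABL1 by distance from the annotated start of exon 1b in kb, with the exons of the transcripts that start at exon 1b (upper) and exon 1a (lower) below, drawn as for BCR. The paired downward bars at 55.0 kb, in the unshaded junction interval, are the lost H2A.Zac (45.4) and H2A.Z (24.2) regions of the first intron, and other bars stay at or under 11.8.

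The highest ratio of each mark in the 2 windows was inside ABL1, in the long first intron between exons 1b and 1a. This order is by ratio and not by fold change, and the part of depth and copy number in it was not tested. H2A.Zac was lost at chr9:130768015-130769166 (1152 bp, ratio 45.4), and H2A.Z at chr9:130768204-130768811 (608 bp, ratio 24.2), which lies whole within the H2A.Zac region. The H2A.Zac region was number 267 of 24482 lost regions by ratio, within the highest 1.09%. The H2A.Z region was number 26 of 12592, within the highest 0.206%, where the 99th percentile is 18.2 and the maximum 57.0. The site is 55.0 kb downstream of the exon 1b start, in the junction interval, and the lists do not show whether it is on the fused, the unfused or both kinds of copies. No annotated first exon of ABL1 is at this site, and it had no gained or unchanged region beside it.

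The starts of ABL1 themselves were mostly unchanged. At exon 1b, H2A.Zac was unchanged at chr9:130712019-130713598 (1580 bp, ratio 1.02), and H2A.Z at chr9:130712139-130712600 (462 bp, ratio 0.778) and chr9:130712768-130713820 (1053 bp, ratio 0.315), and a short H2A.Zac region was gained inside the exon at chr9:130713533-130713828 (296 bp, ratio 7.01). A gene named by its identifier alone, ENSG00000288570, also starts there. At exon 1a, the start of the canonical transcript, H2A.Zac was unchanged at chr9:130834684-130835323 (640 bp, ratio 0.333) and chr9:130835536-130836148 (613 bp, ratio 1.30). It was gained at chr9:130835294-130835772 (479 bp, ratio 4.27), over the gap between these unchanged regions and over a part of each. No H2A.Z region was listed within 1 kb of exon 1a, whereas 62.4% of protein-coding genes had an H2A.Z region and 64.2% an H2A.Zac region at the canonical TSS. The exon 1a promoter printed above lies within the first unchanged region, and its last bases reach into the gained one. Both gained regions at the starts of ABL1 were thus acetylated regions that partly overlapped unchanged ones, with ratios near or under the median of 6.87 of the gained H2A.Zac list.

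Elsewhere in the ABL1 junction interval, H2A.Zac and H2A.Z were unchanged together at chr9:130824708-130825522 (815 bp, ratio 0.698) and chr9:130824738-130825161 (424 bp, ratio 0.370). H2A.Z was gained at chr9:130845743-130846198 (456 bp, ratio 3.85), 10.5 kb downstream of the exon 1a start. This was the sole changed H2A.Z region of the 2 windows without an H2A.Zac region on it, and number 8083 of 8965 in its list. After exon 2, H2A.Zac was lost in intron 3 (ratio 4.82) next to an unchanged region (ratio 0.353), and no H2A.Z region was listed from exon 2 to the last exon, exon 11.

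Upstream of ABL1, the changes were 4 lost and 1 gained H2A.Zac regions and 1 lost H2A.Z region, and unchanged H2A.Z was listed at each of the changed H2A.Zac regions. In the body of PRDM12, which encodes a transcription factor of sensory neurons, H2A.Zac was lost at chr9:130681856-130682675 (820 bp, ratio 11.8) and in a second region (ratio 8.60), and H2A.Z, within the first of these, at chr9:130682285-130682600 (316 bp, ratio 3.51), while the PRDM12 start itself had no region. At the start of EXOSC2, which encodes a subunit of the RNA exosome, H2A.Zac was lost at chr9:130692623-130693060 (438 bp, ratio 9.18), unchanged over the start (ratio 1.46) and gained at chr9:130693216-130693661 (446 bp, ratio 3.68), and both of its H2A.Z regions were unchanged. EXOSC2 is an example of a start listed under all 3 classes of H2A.Zac within 1 kb. Downstream of ABL1, the start of FIBCD1, a membrane receptor gene, had an unchanged region of each mark, and that of QRFP, a neuropeptide gene, had none.

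**Figure D3:**
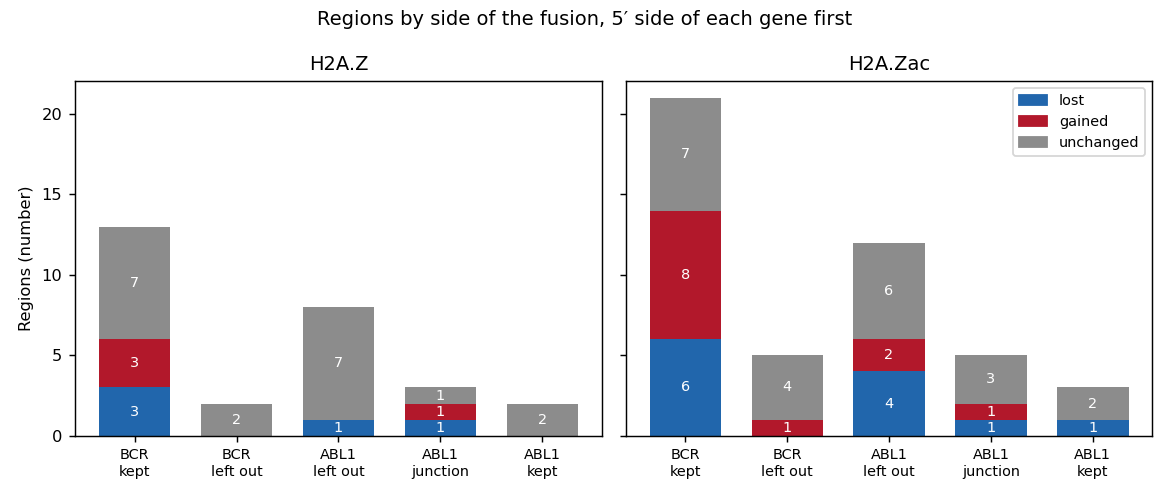
Number of H2A.Z (left) and H2A.Zac (right) regions on each side of the fusion, with the 5′ side of each gene first and bars divided into lost, gained and unchanged regions. BCR has most regions on its kept side (21 of 26 for H2A.Zac), and ABL1 most on its left-out side (12 of 20).

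In the windows of 100 kb to each side, most regions lay on the 5′ side of both genes, which is the side the fusion keeps in BCR and leaves out in ABL1. In BCR, the kept side held 21 H2A.Zac regions, of which 14 were changed (66.7%, 45.4 to 82.8%), and 13 H2A.Z regions, of which 6 were changed (46.2%, 23.2 to 70.9%). The left-out side held 5 H2A.Zac regions with 1 changed (20%, 3.62 to 62.4%) and 2 H2A.Z regions, both unchanged. The 1 change left out of the fusion was a gained H2A.Zac region (ratio 7.04) at the start of the noncoding RNA gene LINC02556, and the 9 lost regions of this window were on the kept side. With 200 kb to each side, the left-out side of BCR had 6 changed H2A.Zac regions, of which 5 were lost. Per 100 kb, the kept side had 9.97 H2A.Zac and 6.17 H2A.Z regions and the left-out side 3.98 and 1.59. The intervals of both sides include the changed shares over all regions, 52.1% for H2A.Zac and 34.0% for H2A.Z. They also overlap each other, and the difference between the sides was not tested.

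In ABL1 the order by side was the opposite for H2A.Zac, and of its 3 changed H2A.Z regions 2 were in the junction interval. The left-out side of ABL1 held 12 H2A.Zac regions, of which 4 were lost and 2 gained (50% changed, 25.4 to 74.6%), and 8 H2A.Z regions, of which 1 was lost (12.5%, 2.24 to 47.1%). The kept side held 3 H2A.Zac regions with 1 lost (33.3%, 6.15 to 79.2%) and 2 unchanged H2A.Z regions. The intervals of both sides of ABL1 also include the shares over all regions. Per 100 kb, H2A.Zac regions numbered 11.8 on the left-out side, 3.58 in the junction interval and 2.25 on the kept side. This order depended on the width of the flank and, for H2A.Z, on the junction interval. With 50 kb to each side the changed share of H2A.Zac was 50% on both sides, and with 200 kb it was 60.0% (6 of 10) on the kept and 44.4% (8 of 18) on the left-out side. With 200 kb the order of the numbers of H2A.Z regions also turned, with 22 on the kept and 10 on the left-out side of ABL1. The changed share of H2A.Z with 200 kb was 31.8% (7 of 22) on the kept and 10% (1 of 10) on the left-out side. With the junction interval counted as kept it was 40.0% (2 of 5) on the kept side, and with exon 1a counted as kept 33.3% (1 of 3), each against 12.5% (1 of 8) on the left-out side. In BCR the kept side had the higher changed share of H2A.Zac with each flank, and with 200 kb it was 58.3% against 40.0%. Counted over both genes, 15 of 24 H2A.Zac regions were changed on kept sides (62.5%, 42.7 to 78.8%) and 7 of 17 on left-out sides (41.2%, 21.6 to 64.0%), and of H2A.Z regions 6 of 15 (40.0%) and 1 of 10 (10%), where 52.1% and 34.0% of all regions of the marks were changed. These sums are carried by BCR on the kept and by ABL1 on the left-out sides, so that side and gene cannot be told apart in them.

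When regions of any class within 1 kb of each other were taken as 1 site, a count added after the data had been seen, the 74 regions formed 26 sites, of which 17 held both marks. Such a site holds a change more often than a single region does, and 74.7% of the 54491 sites over all regions did. Around BCR there were 15, of which 4 held lost regions, 6 gained regions and 1 both, and 4 were unchanged, so that 11 (73.3%) held a change. Around ABL1 there were 11, of which 4 held lost regions, 3 gained regions and 1 both, and 3 were unchanged, so that 8 (72.7%) held a change. Of the 11 kept sites of BCR, 10 held a change, compared with 1 of the 4 left-out sites. All 4 left-out sites of ABL1 held a change, compared with 1 of its 3 kept sites. The 2 sites with changes in both directions were the EXOSC2 start and a site of H2A.Zac alone in BCR intron 1. Merged within 1 mark, the 15 H2A.Z and 26 H2A.Zac regions around BCR formed 10 and 15 sites, and the 13 and 20 around ABL1 formed 9 of each mark. The difference between the sides was not tested for sites either.

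The marks largely shared their sites. Of the H2A.Z regions, 14 of 15 around BCR (93.3%) and 11 of 13 around ABL1 (84.6%) had at least 25% of their length on H2A.Zac regions, compared with 82.8% of all H2A.Z regions. Of the H2A.Zac regions, 15 of 26 (57.7%) and 15 of 20 (75.0%) lay on H2A.Z regions, compared with 60.5% of all. All 6 changed H2A.Z regions around BCR and both lost ones around ABL1 lay on H2A.Zac regions changed in the same direction, and none lay on a region changed in the opposite direction. Over all regions, 8302 of 12592 lost H2A.Z regions lay on lost and 9 on gained H2A.Zac, and 5901 of 8965 gained ones lay on gained and 7 on lost H2A.Zac. Of the H2A.Zac regions, 3 of 6 lost and 3 of 9 gained around BCR, and 2 of 6 and none of 3 around ABL1, lay on H2A.Z changed in the same direction. Together these are 8 of 24 (33.3%), where 28.6% of all lost and 18.7% of all gained H2A.Zac regions did so. Most changed H2A.Zac regions in the windows, as over all regions, were thus not on H2A.Z called changed in the same direction. Some of them had no listed H2A.Z region at all, and whether H2A.Z changed there is not known.

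**Figure D4:**
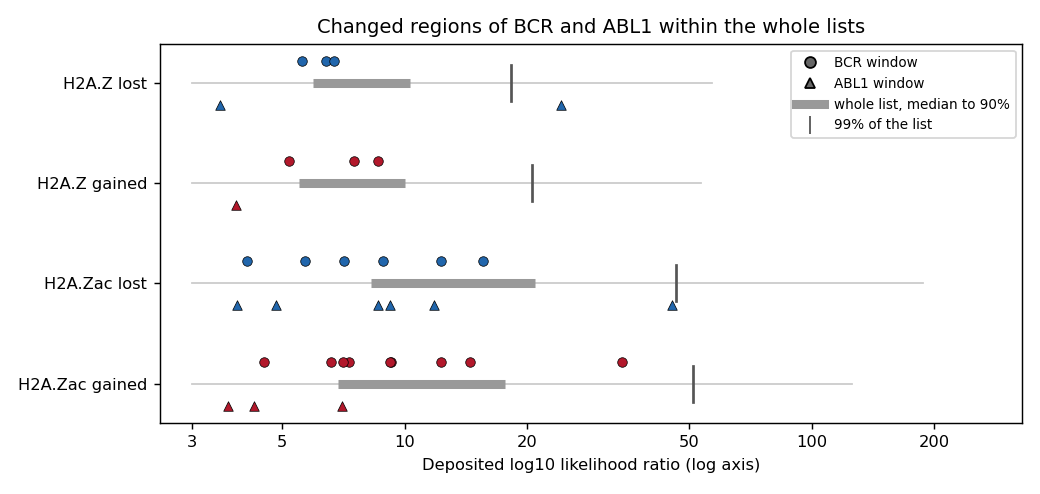
Log10 likelihood ratios (log axis) of the changed regions around BCR (circles) and ABL1 (triangles) by mark and direction. The thick gray bar runs from the median to the 90th percentile of the whole list, the thin line from the cutoff of 3 to the maximum, and the tick is the 99th percentile. The lost H2A.Z region of the first ABL1 intron (24.2) is past the tick at 18.2, and its H2A.Zac counterpart (45.4) is just under that at 46.5.

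Beside the first intron of ABL1 and the RAB36 start, the changed regions had ordinary ratios. The median ratio around BCR was 7.96 for the 6 lost and 9.18 for the 9 gained H2A.Zac regions, and 6.42 and 7.49 for the 3 lost and 3 gained H2A.Z regions. The whole lists had medians of 8.27, 6.87, 5.95 and 5.48. Around ABL1 the gained regions had low ratios, with a median of 4.27 for H2A.Zac and a ratio of 3.85 for H2A.Z, and the 6 lost H2A.Zac regions had a median of 8.89. Around BCR, the median widths of gained H2A.Zac and H2A.Z regions were 783 and 350 bp, where those of the whole lists are 664 and 449 bp, and of lost regions 821 and 809 bp, where those of the whole lists are 702 and 525 bp, with 3 H2A.Z regions in each direction. Around ABL1 the median widths were below those of the whole lists, at 446 bp for gained and 386 bp for lost H2A.Zac and 462 bp for the 2 lost H2A.Z regions, except for the 1 gained H2A.Z region (456 bp). The central 300 bases of the gained H2A.Zac regions of both windows held a GC box in 5 of 12 cases and those of the lost ones in 1 of 12. Over all regions the shares were 24.0% of the gained and 16.2% of the lost. The GATA motif was in 4 of 12 gained and 1 of 12 lost H2A.Zac regions, with 16.7% and 13.2% over all regions, the MYC E-box in 1 of 12 of each, with 3.21% and 8.58%, and the AP-1 motif in 1 of 12 gained and none of the lost, with 8.06% and 5.53%.

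At the paralogues of both genes, the changes at the start were in H2A.Zac alone. ABL2, which encodes the second kinase of the ABL family, had at its canonical TSS a lost (ratio 8.37) and a gained (ratio 5.01) H2A.Zac region and unchanged H2A.Z (ratio 0.463). ABR, whose protein has the same exchange and GTPase-activating domains as BCR, had a gained H2A.Zac region (ratio 8.60) and unchanged H2A.Z (ratio 0.314). Each paralogue also had 2 unchanged H2A.Zac regions there, with ratios of at most 1.17 at ABL2 and 1.15 at ABR. Of all protein-coding genes, 49.0% had a changed H2A.Zac region at the canonical TSS and 36.8% a gained one. Among genes with an H2A.Zac region there, the shares were 76.4% and 57.3%, so that such changes are common and not particular to the paralogues. ABL1 itself was like them at exon 1a, apart from having no H2A.Z region there, and BCR differed in having lost regions of both marks. Both marks lost at the canonical TSS occurred in 5.29% of all protein-coding genes.

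**Figure D5:**
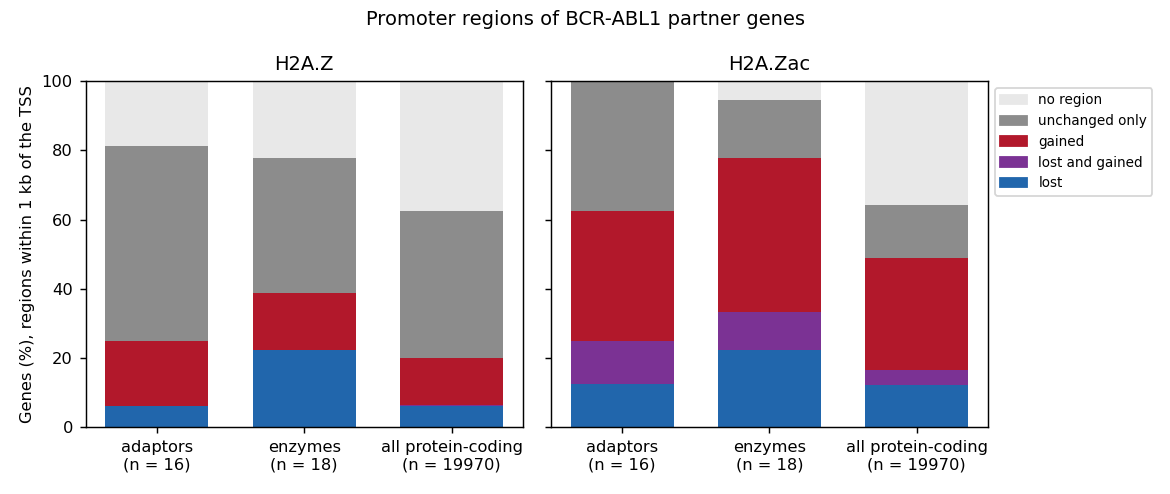
Share of genes (%) by the class of the H2A.Z (left) and H2A.Zac (right) regions within 1 kb of the canonical TSS, for 16 adaptors, 18 enzymes and all 19970 protein-coding genes. Changed H2A.Zac regions were at 62.5% of the adaptor and 77.8% of the enzyme genes and at 49.0% of all genes, and among genes with an H2A.Zac region at 62.5%, 82.4% and 76.4%.

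The proteins through which BCR-ABL1 signals were taken as 2 lists of genes, 16 adaptors and docking proteins and 18 kinases, phosphatases, exchange factors and their like. Of these 34 genes, 33 had an H2A.Zac region at the canonical TSS. A changed H2A.Zac region was at 24 of them (70.6%), and 49.0% of all protein-coding genes had one. Lost regions were at 10 genes (29.4%, against 16.7% of all) and gained regions at 18 (52.9%, against 36.8%), 4 of them having both. Changed H2A.Z was at 11 (32.4%, against 20.1%), lost at 5 (14.7%, against 6.55%) and gained at 6 (17.6%, against 13.9%). These differences follow in part from how many genes had a region at all, which 64.2% of all genes had for H2A.Zac. Among genes with an H2A.Zac region, a base chosen after the data had been seen, changed regions were at 24 of 33 list genes (72.7%) and at 76.4% of all genes, and gained regions at 54.5% and 57.3%, so that the order turned, while lost regions were at 30.3% and 26.0%. Among genes with an H2A.Z region, changed regions were at 11 of 27 list genes (40.7%) and at 32.2% of all genes, lost regions at 18.5% and 10.5%, and gained regions at 22.2% and 22.3%. No test was made of the lists.

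Both marks were lost at 3 of the 34 genes (8.82%, against 5.29% of all genes), INPP5D, RAC2 and PLCG1. INPP5D, which encodes the blood cell inositol phosphatase SHIP1, had the highest ratios of the lists (19.3 for H2A.Z and 26.4 for H2A.Zac) and no region of another class. RAC2, a small GTPase of blood cells, had ratios of 10.7 and 15.8, with a gained H2A.Zac region beside them (14), and PLCG1, a phospholipase, 5.26 and 8.21, also with a gained H2A.Zac region (4.44). These 3 genes are all from the list of enzymes. Both marks were gained at 4 genes (11.8%, which is near the 11.0% of all genes), the adaptor genes NCK1 (6.19 for H2A.Z and 6.75 for H2A.Zac) and GRB2 (4.35 and 3.74), the RAS exchange factor gene SOS1 (5.68 and 6.51) and PIK3CA, a catalytic subunit of PI3 kinase (6.59 and 8.22). At each of these 4 genes and at PLCG1, unchanged regions of both marks were also listed, and at RAC2 an unchanged H2A.Zac region. GRB2 and SOS1 encode the pair that links BCR-ABL1 to RAS.

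Among genes with 1 mark changed, the highest ratios of lost regions were in H2A.Zac at RIN1 (18.4), whose product binds ABL kinases, DOK2 (17.0), a docking protein gene, and FES (12.5), a tyrosine kinase gene, and none of these had an H2A.Z region. The highest of gained regions were in H2A.Zac at PIK3CB (13.8), another catalytic subunit of PI3 kinase, CRKL (13.2), an adaptor that is a main substrate of BCR-ABL1, and ABI1 (11.4), an ABL interactor that also had a lost region (8.40). PIK3CB, CRKL and ABI1 also had unchanged H2A.Zac regions. At CRKL, which is on chromosome 22 with BCR, H2A.Z was unchanged (ratio 0.437).

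By the share of the window covered by each of the 6 lists, the genes nearest to BCR among 19958 were TBCC, FRMPD1 and LIN54, with Manhattan distances of 1.03, 1.16 and 1.17 percentage points where the median gene was at 6.70. The genes nearest to ABL1 were CFAP100, EP300 and SLC25A20, at 0.513, 0.533 and 0.557 with a median of 5.25. In the BCR window, 0.875, 0.309 and 2.75% of the bases were in lost, gained and unchanged H2A.Z regions and 1.5, 2.30 and 2.22% in those of H2A.Zac. In the ABL1 window the values were 0.247, 0.122 and 2.10% for H2A.Z and 0.884, 0.326 and 2.22% for H2A.Zac. The windows thus had the same unchanged H2A.Zac coverage, and BCR had the higher coverage in each of the 4 lists of changed regions.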

How the data were processed

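ChIP-seq of H2A.Z and H2A.Zac was carried out in WT and ΔTRRAP K562 cells with 2 biological replicates of each mark and of input. The authors aligned reads to hg38 with Bowtie2 2.4.5, called peaks with MACS2 2.2.7.1, merged replicates, scaled both lines to the same effective depth and compared them with bdgdiff at a log10 likelihood ratio cutoff of 3. They kept regions with at least 25% of their length in reproducible peaks (IDR cutoff of 0.05). The score deposited with each region is this log10 likelihood ratio, and it was used to describe and rank regions. After merging, a class rests on the sum of the replicates, and depth affects the score.

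Regions of the 6 lists that overlapped BCR or ABL1 (GENCODE 44) plus 100 kb by 1 base or more were taken, with sides from the exons of the main BCR transcript and of the ABL1 transcripts that start at exons 1a and 1b. Genes were described by regions within 1 kb of the canonical TSS, and pattern likeness by the summed absolute differences in coverage by the 6 lists. Shares have Wilson 95% intervals (scipy 1.17.1). Python 3.11.15, numpy 2.4.6, pandas 2.3.3 and matplotlib 3.10.9 were used. Overlap calculations for 63138 regions were tested against bedtools 2.31.1 with 0 differences, and 200 planted motifs were found with 0 missed. Per-sample columns left unused numbered 0.

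The members, gene lists and choices were made with earlier results of these data known. Genes named by rule are BCR, ABL1, their paralogues ABR and ABL2, protein-coding genes that start in the windows, list genes with both marks changed in 1 direction or with the 3 highest ratios in each direction, and the 3 nearest patterns, with markers of cell types. Other genes are named only as the place of a region. Regions with coordinates are those at BCR or ABL1 starts, the 3 with the highest ratios per gene, mark and direction, those in junction intervals, and 1 region of BCR intron 1 that was chosen after its values were seen. Alternatives were other flanks, widths, cutoffs, overlaps, TSS windows, units, bases and junction assignments. Signal tracks, inputs and expression were not analysed here. Some members of the gene lists and some sequences are not reported here.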

Additional observations from a re-analysis of the deposited data

How the results depend on the processing

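Of 151 alternative values of 32 results, 125 stayed within 1.5 times the count or within the counting interval of the value reported, and 26 moved, all listed here. For shares of few regions the counting interval is wide, so that staying within it does not show that a share is stable. Among the 125 is the gained share of changed H2A.Z on the kept side of BCR, which was 26.1% by base pairs and 40.0% with merged regions. The changed share of H2A.Z on the kept side of ABL1, with an interval of 0 to 65.8%, is also among them at 40.0% with the junction interval. So are the changed shares of H2A.Zac with 200 kb that turned the order of the sides of ABL1. With the gene body alone, BCR had 4 H2A.Z regions, 2 of them changed, and 13 H2A.Zac regions, 6 of them changed, and ABL1 had 4 H2A.Z regions and 9 H2A.Zac regions, 4 of them changed. With regions of at least 500 bp, BCR had 3 changed H2A.Z regions and 17 H2A.Zac regions in all, and ABL1 had 7 H2A.Z regions, 1 of them changed, and 11 H2A.Zac regions, 2 of them changed. With 200 kb to each side, ABL1 had 35 H2A.Z regions, 10 of them changed, and 33 H2A.Zac regions, 16 of them changed. With regions within 1 kb taken as 1 site, there were 15 sites around BCR and 11 around ABL1, and with regions of H2A.Zac alone so merged 15 and 9. On the left-out sides, the gained share of changed H2A.Zac regions became 16.7% in BCR with 200 kb (1 of 6), and in ABL1 100% with the gene body alone (1 of 1) and 0% with a ratio of at least 10 (0 of 1). The changed share with the gene body alone became 0% for H2A.Zac in BCR (0 of 2) and 0% for H2A.Z in ABL1 (0 of 1).

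No paired analysis was possible because the lists come from merged replicates and carry no replicate numbers, and for the same reason no replicate was left out. Depth is unknown here, and a region that is not listed was not called or not kept. Running numbers in the lists skip 6 regions in the BCR window, 3 gained and 2 lost of H2A.Zac and 1 lost of H2A.Z, and 2 in the ABL1 window.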
